A study of Mus musculus with 3 samples.

Results

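The small nuclear RNA (snRNA), small nucleolar RNA (snoRNA) and small Cajal body RNA (scaRNA) genes detected in the cytosolic fraction of mouse macrophages are described here. The genes were chosen by their measured level: a gene belonged to one of these 3 classes in the GENCODE M21 annotation and had a mean expected count (estimated reads per gene) of 10 or more over the 3 libraries. This took 48 of 2943 annotated genes of the classes, namely 22 of 1385 snRNA genes, 21 of 1507 snoRNA genes and 5 of 51 scaRNA genes. The tables held 55536 genes in all, and 103 genes of the classes had any expected count.

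Total RNA depleted of ribosomal RNA was sequenced from the cytosol of bone marrow-derived macrophages, phagocytes grown from the marrow of C57BL/6J mice. The cells were pretreated with lipid A, the membrane anchor of bacterial lipopolysaccharide, at 100 ng/ml for 12 h. They were then kept for 12 h after washout and collected at 0 min of a second stimulation. The 3 libraries, biological replicates 1, 2 and 3 under the same donor identifier, formed 1 group, and no untreated group was analysed here. The labels do not say whether the libraries came from separate animals, so the tests between them cover only these libraries. All 7 macrophage markers listed were at 1 TPM (relative transcript abundance corrected for length) or more in every library, the B cell, T cell, erythroid and fibroblast lists each summed to at most 0.1 TPM per library, and the neutrophil list summed to 4.76, 8.55 and 9.36 TPM. In such bulk RNA, fewer cells of a type and less RNA per cell cannot be told apart.

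The spliceosomal snRNAs, among them U1, U2 and U4, are bound by Sm proteins and recognise or remodel introns during splicing of pre-messenger RNA. Newly made Sm-class snRNAs are exported, receive their Sm ring and a trimethylated cap in the cytoplasm, and return to the nucleus. Box C/D snoRNAs guide ribose methylation and box H/ACA snoRNAs guide pseudouridylation, mostly of ribosomal RNA, whereas U3 and U17 act in the processing of ribosomal RNA precursors. The scaRNAs carry the same boxes and guide modification of snRNAs in Cajal bodies, a nuclear compartment. In vertebrates most snoRNAs are cut from introns of host genes, while U1, U2, U3 and U4 have promoters of their own.

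The 9 RNAs below stand for the kinds of molecule detected: the 2 most abundant snRNA families, an unnamed snRNA, 3 RNAs of the box C/D kind, 2 with an ACA box, and the gene with the most counts. They are GENCODE M21 transcripts on GRCm38 (mm10), written 5′ to 3′ with T for U. Capitals mark a searched motif on the transcribed strand. These are ACTTACCTG, the stretch of U1 that pairs with 5′ splice sites, GTAGTA, the stretch of U2 that pairs with the branch point, ATTTNTG (the Sm site), TGATGA (the C box), CTGA within the last 20 bases (the D box) and ACA within the last 6 bases.
Rnu1a1: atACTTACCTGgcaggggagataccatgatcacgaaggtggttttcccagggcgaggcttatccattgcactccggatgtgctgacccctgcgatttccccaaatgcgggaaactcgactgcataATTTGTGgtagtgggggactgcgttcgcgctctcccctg
Rnu2-10: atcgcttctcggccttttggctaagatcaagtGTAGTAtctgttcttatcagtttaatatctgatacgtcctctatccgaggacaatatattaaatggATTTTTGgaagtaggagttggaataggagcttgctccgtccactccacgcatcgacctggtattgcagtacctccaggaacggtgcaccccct
Gm24265: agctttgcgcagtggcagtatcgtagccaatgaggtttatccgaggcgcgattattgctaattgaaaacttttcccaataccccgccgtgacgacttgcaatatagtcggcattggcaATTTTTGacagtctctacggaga
Rnu3b1: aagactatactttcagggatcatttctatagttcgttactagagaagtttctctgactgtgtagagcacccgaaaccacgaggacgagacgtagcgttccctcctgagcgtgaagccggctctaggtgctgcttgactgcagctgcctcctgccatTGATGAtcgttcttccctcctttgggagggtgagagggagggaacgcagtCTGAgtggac
Snord17: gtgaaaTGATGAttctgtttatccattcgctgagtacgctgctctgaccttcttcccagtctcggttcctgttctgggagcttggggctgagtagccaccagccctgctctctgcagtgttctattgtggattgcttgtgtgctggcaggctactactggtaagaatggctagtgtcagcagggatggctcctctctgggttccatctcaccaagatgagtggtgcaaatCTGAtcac
Snord22: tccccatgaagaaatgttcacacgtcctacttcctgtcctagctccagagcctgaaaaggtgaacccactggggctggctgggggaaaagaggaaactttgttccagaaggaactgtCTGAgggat
Snora73b: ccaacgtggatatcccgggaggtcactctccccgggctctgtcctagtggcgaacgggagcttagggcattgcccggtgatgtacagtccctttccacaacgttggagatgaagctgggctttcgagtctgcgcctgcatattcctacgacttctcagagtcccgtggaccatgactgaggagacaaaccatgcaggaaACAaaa
Gm22988: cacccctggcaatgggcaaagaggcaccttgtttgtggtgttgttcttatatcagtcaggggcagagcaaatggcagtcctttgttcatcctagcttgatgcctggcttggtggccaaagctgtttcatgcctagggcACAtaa
Gm22009, bases 194 to 343: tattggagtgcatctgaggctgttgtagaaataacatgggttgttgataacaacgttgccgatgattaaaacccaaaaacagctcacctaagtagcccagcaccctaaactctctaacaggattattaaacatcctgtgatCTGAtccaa

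Rnu1a1 (U1, 164 bases) lay at chr11:87422867-87423030 on the plus strand, in an intron of Tex14. Rnu2-10 (U2, 191 bases) lay at chr11:101658238-101658428 on the plus strand and Gm24265 (141 bases) at chr5:115489459-115489599 on the plus strand, both between genes. Rnu3b1 (U3, 216 bases) lay at chr11:87443237-87443452 on the plus strand in Tex14. Snord17 (238 bases) lay at chr2:144265979-144266216 on the minus strand in an intron of Snx5, which encodes a sorting nexin. Snord22 (126 bases) lay at chr19:8725866-8725991 on the plus strand, overlapping exons of non-coding transcripts of Snhg1. Snora73b (U17, 205 bases) lay at chr4:132352322-132352526 on the minus strand in an intron of Rcc1, the exchange factor of the GTPase Ran. Gm22988 (144 bases) lay at chr11:69669635-69669778 on the minus strand in Eif4a1, which encodes a translation initiation helicase. The stretch shown of Gm22009 (343 bases) lay at chr3:69085105-69085254 on the minus strand, in an intron of Kpna4, which encodes an importin.

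The motifs were counted over distinct sequences, where near copies still count separately. The 11 snRNA member sequences are 4 of U1, 6 of U2 and 1 of Gm24265. The 20 snoRNA and scaRNA ones include 3 of U3 and 3 of U17. ATTTNTG was in 11 of 11 snRNA member sequences (100%), in 256 of 1295 snRNA sequences below the threshold (19.8%) and in 519 of 5851 windows of 191 bases from the 3′ ends of lincRNA transcripts (8.87%). The stricter ATTTTTG, a subset of those matches, was in 7 of 11, in 35 of 1295 and in 137 of 5851. Of the 20 distinct snoRNA and scaRNA member sequences, 10 held both a C box and a D box (50%), against 15.6% of 1394 sequences below the threshold and 0.617% of 5832 lincRNA windows of 214 bases. ACA within the last 6 bases was in 9 of 20 member sequences (45%), in 50.6% of those below the threshold and in 7.63% of the windows. The H box ANANNA was in 20 of 20 member sequences, and in 97.9% of the windows, where so loose a motif is nearly always met. Snord22 held a D box and no TGATGA in its annotated sequence.

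The detected genes were the long ones of their classes. No gene under 125 bases was a member, although 655 annotated genes are under 100 bases and 1108 are from 100 to 124 bases. Members were 5 of 898 genes of 125 to 149 bases (0.557%), 23 of 242 genes of 150 to 199 bases (9.5%) and 20 of 40 genes of 200 bases or more (50%). The median length was 191 bases over members (range 126 to 414) and 108 bases over all annotated genes of the classes. Of 98 annotated Snord genes, whose median length was 84 bases, 2 were members, and of 42 Snora genes, with a median of 132.5 bases, 3 were.

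**Figure D1:**
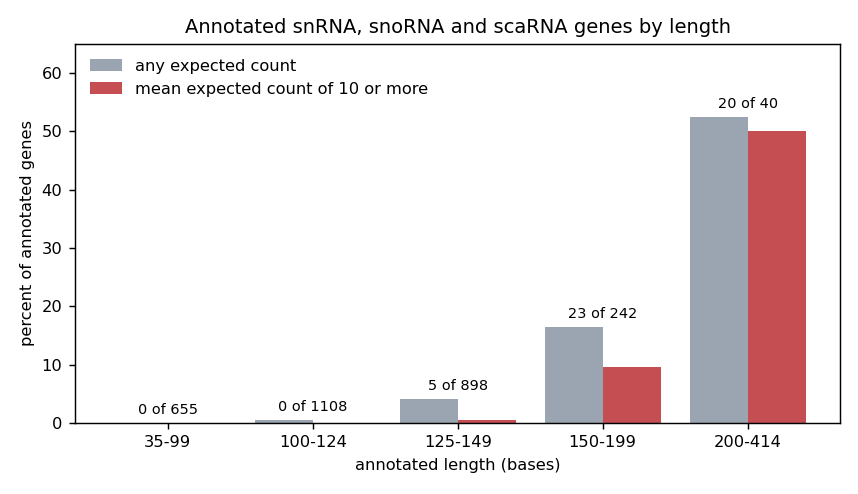
Percent of annotated snRNA, snoRNA and scaRNA genes (y axis) with any expected count (grey) and with a mean expected count of 10 or more (red), by annotated length in bases (x axis). The labels give members of annotated genes: the red bars rise from 0 of 655 genes of 35 to 99 bases to 20 of 40 genes of 200 to 414 bases.

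The tables state an effective length for each gene, the part of it in which a fragment of the library's size could start. It was 0 in all 3 libraries for members of up to 129 bases, and 1.02, 2.26 and 1.85 bases in replicates 1, 2 and 3 for the 141 bases of Gm24265. The labels give a library size range of 250 to 400, with no unit, and 1 µg of RNA input. In the authors' second table, estimated directly from the reads, 110 genes under 100 bases and 284 genes of 100 to 124 bases had counts, against 0 and 5 in the alignment-based table. The short spliceosomal RNAs Rnu5g (116 bases) and Rnu6 (107 bases) and the histone-processing RNA Rnu7 (62 bases) had 0 expected counts in every library. Rnu12, the 151-base RNA of the minor spliceosome, had 1, 5 and 10 expected counts, but 10, 33 and 86.98 counts in the read-derived table.

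At the threshold, Snord22, Gm24305 and Gm26447 lay just inside, with mean expected counts of 12.99, 11.74 and 11.64. Gm26083, Snord15b and Gm24407 lay just outside, with 9.563, 8.917 and 8.

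Many members are copies of one another. The 48 genes carried 31 distinct sequences, and grouping those at least 85% identical over at least 90% of both lengths gave 19 families: U1 (11 genes), U2 (10), U3 (9), U17 (3) and 15 single genes. Reads shared by copies were split by the authors' counting, so single copies are uncertain and values below are sums over a family unless a gene is named. Of the U1 genes, 7 were identical in sequence (Rnu1a1, Gm22068, Gm22317, Gm22634, Gm23804, Gm25679 and Gm26444), and each held the same 23.26, 36.58 and 180.39 expected counts in replicates 1, 2 and 3. Gm22513 differed from Rnu1a1 only by T60C (reference base, position from the 5′ end, base of the copy) and held 83, 142.08 and 662.43, more than any other U1 gene. Gm24305 differed only by A26G and held 5.21, 5.89 and 24.12.

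The U2 copies did not share their reads evenly. Rnu2-10, Gm23849, Gm23971 and Gm24950 were identical and held 106.85, 137.7 and 522.95 expected counts each. Gm23444 and Gm23472 share G109C and held 101.01, 0 and 457.15 each, whereas Gm24497, with G109C and C186A, held 0, 393 and 457.15. One copy was thus at 0 in replicate 1 and the others in replicate 2, while the U2 sum was 765.02, 1210 and 4380 counts. Each of Rnu3b1, Rnu3b2, Rnu3b3 and Rnu3b4 has overlapping entries of 215 and 216 bases, and the read-derived table put all counts on the 216-base ones. Over the 19 families, the read-derived count was 1.01 to 2.42 times the alignment-based one, within 1.2-fold for 13 families. For single members, 28 of 48 were within 1.2-fold and 5 were at 0 in the read-derived table.

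Members held 0.0116% of expected counts in replicate 1 (3362 of 28981178, 95% Wilson interval 0.0112 to 0.0120%), 0.00991% in replicate 2 (5265 of 53119941, 0.00965 to 0.0102%) and 0.0374% in replicate 3 (17514 of 46783133, 0.0369 to 0.0380%). The mean was 0.0196 ± 0.0154% (SD, n = 3). The intervals cover counting error only and do not overlap, with replicate 3 highest. Of TPM they held 0.441, 0.199 and 1.30%. The 5 scaRNA genes took 0.00916 ± 0.00622% of counts, the 22 snRNA genes 0.00703 ± 0.00627% and the 21 snoRNA genes 0.00346 ± 0.00296% (SD, n = 3). Each pair of these means differed by less than the larger SD of the pair, although scaRNA and snRNA genes differed from snoRNA genes by more than the snoRNA SD. The SDs hold the shift of replicate 3 common to the classes, but the order scaRNA, snRNA, snoRNA was the same in all 3 libraries.

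Among the spliceosomal RNAs, U1 and U2 led. Levels from here on are CPM, the counts of a library scaled to a common total and by TMM (edgeR's factor between libraries), unless another unit is named. U1, which recognises 5′ splice sites, was at 10.1, 8.77 and 46.1 CPM in replicates 1, 2 and 3, and its 11 genes summed to 284.03, 459.03 and 2257.9 expected counts. U2, which pairs with the branch point, was at 27.4, 22.9 and 89.7 CPM. Both were close in replicates 1 and 2 and higher in replicate 3.

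Gm24265 was the only snRNA member outside the U1 and U2 families. The 5 annotated genes of its family, itself included, carry no snRNA name in their M21 symbols. Its sequence was compared only with M21 genes of the classes, so which snRNA it is was not determined here. It had 5, 21 and 37 expected counts, or 0.179, 0.398 and 0.757 CPM. These 3 values differed (adjusted p = 0.00179, chi-square test with Benjamini-Hochberg adjustment), with replicate 1 lowest and replicate 3 highest.

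Of the box C/D RNAs, U3, which acts in the cleavage of ribosomal RNA precursors, was at 4.76, 2.61 and 8.35 CPM. The 213-base Rnu3a entry, outside Tex14, had 17, 18 and 40 expected counts and the smallest difference of all members, 1.70-fold between replicate 3 and the mean of the others. That value is uncertain: the read-derived table gave this entry 0 counts and a second Rnu3a entry, of 214 bases, 33, 38.48 and 112.2, where the expected counts of the second were 0. Snord17 was at 0.322, 0.189 and 3.81 CPM, from 9, 10 and 186 counts. Snord22, the shortest member, was at 0.179, 0.208 and 0.471 CPM (adjusted p = 0.0313, the largest of the members, chi-square test with Benjamini-Hochberg adjustment). Replicate 3 was highest for each, but the gap was wide for Snord17 and narrow for Rnu3a and Snord22. Snord17 and Snord22 were members only because replicate 3 was high.

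Of the box H/ACA RNAs, U17, which also acts in processing of ribosomal RNA precursors, was at 0.465, 0.606 and 10.4 CPM. Its members Snora73a and Snora73b, both 205 bases long, are 96.6% identical, with 7 substitutions, and held 4.86, 12.76 and 207.2 and 5.86, 17.61 and 262.02 expected counts. The third U17 gene, Gm26448 in an intron of the ribosomal protein gene Rpsa, held 2, 1 and 37. All 3 genes thus had few counts in replicates 1 and 2 and most of their counts in replicate 3. Snora74a had 2.95, 2.96 and 41.71 expected counts, likewise nearly all in replicate 3. Of these genes only Snora73b passed the threshold without replicate 3, so for the others this follows in part from their choice.

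The remaining snoRNA genes carry Gm or Scarna symbols. Scarna10, filed as a snoRNA gene in M21 and named as a Cajal body RNA, was the most abundant of the class at 14.1, 6.38 and 32.5 CPM. Gm23547 in Phb2, which encodes a prohibitin, was at 2.08, 1.70 and 3.54 CPM, and Gm23262 in the translation factor gene Eif4g2 at 1.36, 0.663 and 2.48 CPM. Gm22988 had 0.98, 4.96 and 72.68 expected counts, Gm25776 had 7, 3 and 42, and Gm26447 had 4, 1 and 29.93. These last 3 had at most 7 expected counts in replicates 1 and 2, near the 3 counts that a count of 0 allows (0.104, 0.0565 and 0.0641 CPM).

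Of the scaRNA genes, Gm22009 held more expected counts than any other gene or family: 1270, 2571 and 5721, or 36.6% of the mean count of all members. It was at 45.5, 48.7 and 117 CPM. Scarna2, the longest member at 414 bases and the only scaRNA gene lying between genes, was at 10.3, 5.08 and 29.5 CPM. Gm25395 (1.15, 0.549 and 4.89 CPM) and Scarna6 (0.716, 0.227 and 1.86 CPM) lie in introns of the same gene, Atg16l1, an autophagy gene, and Scarna13 (1.15, 0.587 and 3.13 CPM) in the non-coding host Snhg10. Replicate 2 was lowest for all of these but Gm22009, and replicate 3 was highest for all 5.

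**Figure D2:**
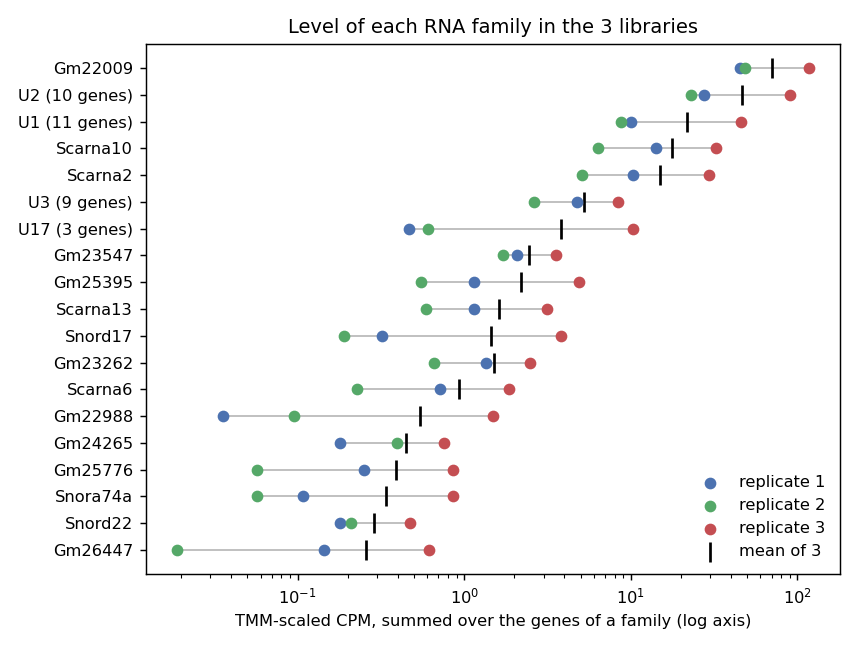
Level of each of the 19 RNA families (y axis) in TMM-scaled CPM on a log axis (x axis), 1 point per library, with a vertical tick at the mean. The red points of replicate 3 lie to the right of both other libraries in every row, from 0.471 CPM for Snord22 to 117 CPM for Gm22009.

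Which RNA ranks first depended on how length was treated. By deposited TPM, U1 (1653, 693 and 5521 TPM) and U2 (1684, 773 and 4407 TPM) were ahead of Gm22009 (255, 210 and 659 TPM) in every library. U1 had the higher mean of the first pair, through replicate 3 alone, while U2 was slightly higher in replicates 1 and 2. Per kb of annotated length, U2 led with a mean of 244 ± 195 CPM per kb, before Gm22009 with 205 ± 118 and U1 with 132 ± 129 (SD, n = 3). In both scales the SDs of these 3 were large against the differences between them, although the ratio of U1 to Gm22009 was steadier, 2.50 ± 0.69 on the log2 scale in TPM (SD, n = 3) and -0.93 per annotated kb. In the read-derived TPM that ratio was 0.27.

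The effective length entered these values directly, since a deposited TPM is a count divided by it and scaled. A U1 gene of 164 bases had an effective length of 3.55, 6.83 and 5.73 bases in replicates 1, 2 and 3, so that its annotated length was 46.2, 24.0 and 28.6 times the effective one. For the 343 bases of Gm22009 those ratios were 3.33, 2.70 and 2.81, and over members with a positive value they ran from 138 at 141 bases to 2.46 at 414 bases in replicate 1. U1 was therefore 1653 against 693 TPM in replicates 1 and 2 where its CPM were 10.1 and 8.77. Gm22988, Gm24265 and Gm25776 had effective lengths of 1.02 to 2.69 bases over the 3 libraries. Their mean TPM were 166, 160 and 140, on mean expected counts of 26.2, 21 and 17.3. These were above Scarna10, with a mean of 112 TPM on 774 counts. The mean of Gm22988 came mostly from replicate 3, since its values were 16.5, 19.1 and 463 TPM in replicates 1, 2 and 3. Snord22 and Gm26447, with an effective length of 0, were listed at 0 TPM in every library despite their counts.

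**Figure D3:**
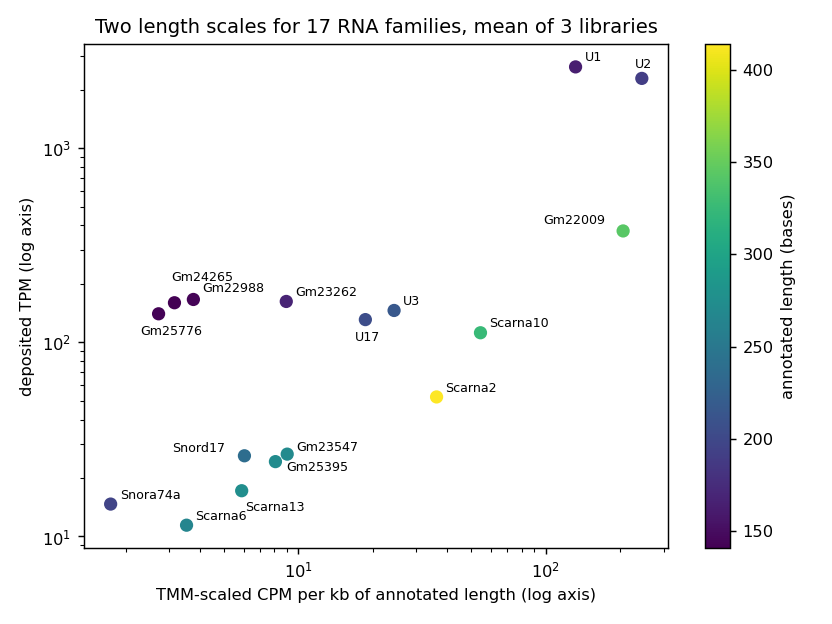
Deposited TPM (y axis, log) against TMM-scaled CPM per kb of annotated length (x axis, log) for the 17 families with a TPM above 0, each the mean of 3 libraries, coloured by annotated length in bases. The short Gm22988, Gm24265 and Gm25776 (dark, upper left) reach 140 to 166 TPM at a CPM per kb of 2.72 to 3.76, where the 265-base Scarna6 has 11.4 TPM at 3.53.

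Every family was highest in replicate 3, but the choice of members favoured this for some. For 6 of the 19 families the mean of replicates 1 and 2 was under 10 counts, so they were members only because replicate 3 was high: Gm22988, Gm25776, Gm26447, Snora74a, Snord17 and Snord22. Their ratios of replicate 3 to the mean of the others, 2.32 to 19.1, follow in part from that choice and are given as values only. The other 13 families each held a gene that passed on replicates 1 and 2 alone. In their sums, replicate 3 was 1.86-fold (Gm23547) to 19.2-fold (U17) higher, with a median of 3.56-fold. Among them U1 was 4.89-fold higher, U2 3.56-fold, Scarna2 3.83-fold, Scarna10 3.17-fold, Gm24265 2.54-fold, Gm22009 2.49-fold, Gm23262 2.43-fold and U3 2.25-fold. Some of these sums include genes that entered only through replicate 3. Without it, 10 of 11 U1 genes, 9 of 10 U2 genes and 1 of 3 U17 genes passed. The U17 gene that did, Snora73b, was 18.4-fold higher by itself, while the next of the 13 families was Gm25395 at 5.69-fold.

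A gene was counted as differing between libraries when a chi-square test of homogeneity on TMM-scaled counts passed a Benjamini-Hochberg adjusted threshold of 0.05 and the highest library was at least 2 times the lowest. The test compares 3 libraries against counting error and says nothing of conditions. The ratio does most of the selecting, since 10304 of 13636 genes passed the adjusted p alone. All 48 members met this, and all 48 were highest in replicate 3. Of all genes tested, 16.2% differed and 11.3% differed with replicate 3 highest, and of the 2096 genes that are not protein-coding, 60.4% and 53.0% did. Since the rule used the mean over all 3 libraries, a gene that passed only through replicate 3 had to be high there, and nothing is read from the count of 48.

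With the threshold of 10 counts also applied to replicates 1 and 2 alone, 38 of the members remained. Genes still had to reach a mean of 10 over all 3 libraries. A high replicate 3 could thus not bring a gene in, while a low one could leave it out. Leaving replicate 3 out of the choice altogether gave 38 genes of the classes as well. All 38 differed with replicate 3 highest, by a median of 3.35-fold (range 1.70 to 18.4). Of all 12587 genes chosen in the same way, 4.78% did, with a median of 0.952-fold. The 38 genes are not independent of each other, since 28 of them are U1, U2 or U3 copies. Without replicate 3, 12 of the 38 genes then tested differed between replicates 1 and 2. Of all genes tested in that way, 608 of 12638 (4.81%) did. Among the 38, the largest differences were in copies that share reads, Gm24497, Gm23444, Gm23472 and the 215-base Rnu3b entries, so these calls are uncertain. As family sums, U2 was at 27.4 and 22.9 CPM and U3 at 4.76 and 2.61 CPM in replicates 1 and 2. The single genes Scarna2, Scarna6, Scarna10, Gm23262 and Gm25395 also differed more than 2-fold between these libraries. Gm24265 was more than 2-fold apart too, but on only 5 and 21 expected counts, and is not counted with them. The median log2 difference of replicate 1 from replicate 2 over these 38 was 0.27, against 1.74 for replicate 3 from the mean of both.

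**Figure D4:**
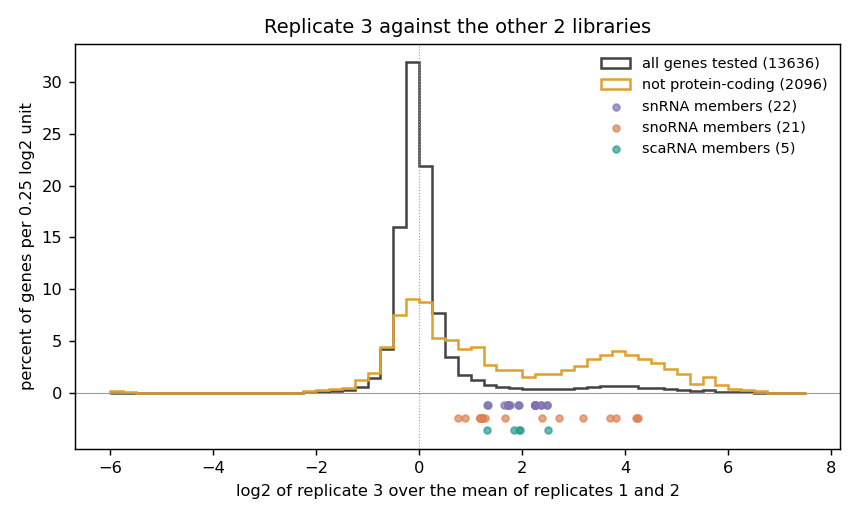
Log2 ratio of replicate 3 to the mean of replicates 1 and 2 (x axis), as percent of genes per bin (y axis) for all 13636 genes tested (black) and the 2096 that are not protein-coding (orange), with values beyond the axis drawn in the end bins. The points under the axis are the 48 members by class, all to the right of 0, of which 10 passed the count threshold only with replicate 3.

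Other nuclear RNAs were also highest in replicate 3. Malat1, a long non-coding RNA of nuclear speckles, was at 158, 91.0 and 1343 TPM, 10.6-fold higher in CPM in replicate 3. Neat1, the scaffold of paraspeckles, was at 16.8, 10.4 and 91.4 TPM, 6.79-fold higher in CPM. Of the 7 listed nuclear RNAs, 5 could be tested (these and Kcnq1ot1, Firre and Airn), and all 5 differed with replicate 3 highest, by a median of 6.79-fold. Replicate 3 was already known from these data to be high in nuclear RNAs, so the 5 are a description and no test. Of the genes that are not protein-coding, 53.0% differed with replicate 3 highest. The part of the listed nuclear RNAs in the difference of the small RNAs was not tested. The spread between libraries that edgeR estimates beyond counting error, as a common coefficient of variation, was 0.784 for the 29 members that enter it and 0.210 for all 12090 genes that do.

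Position was not used in choosing the members. On the same strand, 22 members lay in an intron and 8 overlapped an exon of another gene, while 18 lay between genes. The 8 exons all belonged to non-coding transcript types, such as retained introns. By class, 20 of 21 snoRNA and 4 of 5 scaRNA members lay inside a gene, and 16 of 22 snRNA members lay between genes. The overlapping Rnu3b entries in Tex14 count separately among the 20. Of the 2895 genes of the classes below the threshold, 27.7% lay in an intron, 6.15% overlapped an exon and 47.8% lay between genes. Of snoRNA and scaRNA genes below it, 33.3 and 52.2% lay in an intron and 10.2 and 6.52% overlapped an exon. Of snRNA genes below it, 55.1% lay between genes. No source used here gives the strand used in counting, so reads of an exon and of a small RNA inside it cannot be told apart where they overlap.

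Of the 30 members inside a gene, 17 had a host with a mean count of 10 or more (15 hosts, taking the overlapping gene with the most counts). Of these, 8 were members only because replicate 3 was high, which favours a ratio above that of the host. For the other 9, in 8 hosts, the ratio of replicate 3 to the mean of the others was above that of the host in 9 of 9. Its median was 3.31-fold for the 9 members (range 1.86 to 18.4) and 0.976-fold for their hosts (range 0.692 to 1.60). The median member was Gm23849 in Rdm1, a U2 copy identical to Rnu2-10, Gm23971 and Gm24950, which lie between genes. Its counts are an equal share of their common reads, so this pair says little of its host. Of all 15 hosts, 1, AC121821.1 around Snora74a, differed between libraries by the criteria above.

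Eif4a1 was at 457, 472 and 366 CPM in replicates 1, 2 and 3, while Gm22988 inside it was at 0.0358, 0.0947 and 1.49 CPM. Snx5 was at 500, 399 and 433 CPM, against 0.322, 0.189 and 3.81 CPM for Snord17. Both small RNAs are among the 8 chosen through replicate 3. Rcc1, the host of Snora73a, which is also among these 8, and of Snora73b, was at 8.70, 10.1 and 9.17 CPM. The small RNAs were thus highest in the library in which their hosts were lowest, for Eif4a1, or in between, for Snx5 and Rcc1.

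Kpna4 was at 143.5, 129 and 94.4 CPM, lowest in replicate 3, where Gm22009 reached 117 CPM. Scarna10 exceeded its host in 2 of 3 libraries: Ncapd2, a condensin subunit gene, was at 5.01, 6.55 and 7.74 CPM, against 14.1, 6.38 and 32.5 CPM, with replicate 2 as the library in which it did not. Snord22 and its host Snhg1 were closest, with ratios of replicate 3 to the others of 2.32 and 1.18.

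**Figure D5:**
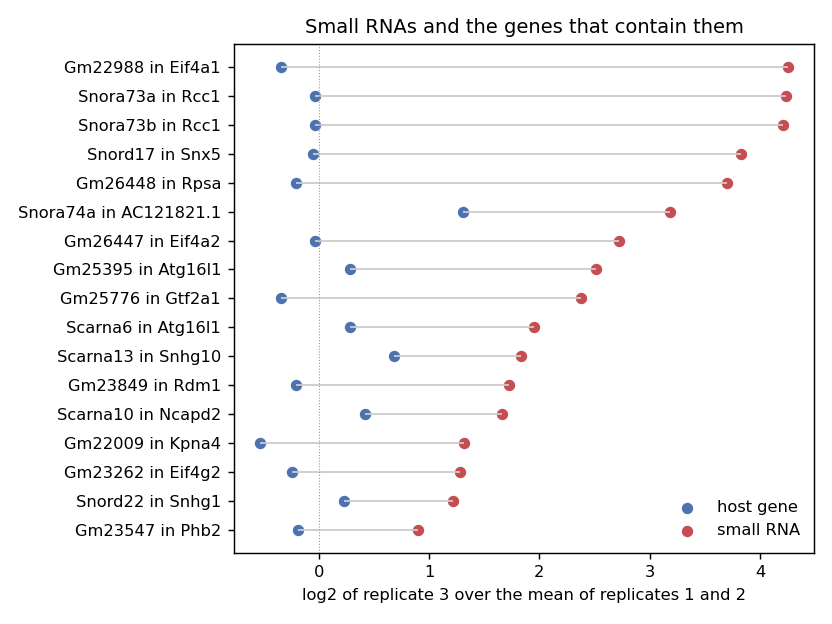
Log2 ratio of replicate 3 to the mean of replicates 1 and 2 (x axis) for 17 small RNAs (red) and the genes that contain them (blue), 1 pair per row. Each red point lies to the right of its blue point, which the choice of members favoured for 8 of the 17 pairs, and the blue points lie between -0.53 for Kpna4 and 1.31 for AC121821.1.

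Messenger RNAs for the proteins that make and carry these RNAs were detected in all 3 libraries. Of the 9 snoRNP protein genes, 9 were at 1 TPM or more in every library, and 0 of 9 reached the ratio of 2, although 9 of 9 passed the adjusted p. Among them were Fbl, the methyltransferase of box C/D particles (10.1, 12.3 and 13.4 TPM), and Dkc1, the pseudouridine synthase of box H/ACA particles (1.66, 1.55 and 2.88 TPM). Their median ratio of replicate 3 to the others was 0.899 in CPM.

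Of 12 snoRNP assembly genes, 11 reached 1 TPM in every library (Shq1 did not) and 0 of 12 reached the ratio of 2 (5 passed the adjusted p). The level was reached by 15 of 16 Sm and Lsm genes (Lsm11, of the U7 particle, did not reach it), by 13 of 13 genes of snRNP-specific proteins and by 16 of 18 genes of snRNA export, capping and cytoplasmic assembly, and none of these genes reached the ratio. Snrpb, an Sm protein gene, was at 26.5, 28.6 and 28.1 TPM, Phax, the adaptor of snRNA export, at 8.25, 7.95 and 8.87 TPM, and Smn1, which loads the Sm ring, at 6.18, 6.64 and 6.26 TPM. Each of these 3 varied less between libraries than U1 and U2 did.

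Of 21 genes of snRNA transcription and 3′ end processing, 21 reached 1 TPM in every library and 1 reached the ratio of 2, Snapc3, a subunit of the snRNA-activating complex, at 1.9, 1.35 and 3.6 TPM and 3.28-fold higher in CPM in replicate 3. The median ratios of replicate 3 to the others in the lists of protein genes were from 0.86 for Sm and Lsm genes to 1.02 for this one, beside 0.972 over all genes and 3.35 over the 38 small RNA members that passed on replicates 1 and 2 alone. Over the 89 genes tested in these lists, 67 had an unadjusted chi-square p under 0.05, 65 an adjusted one, and 1 met the ratio as well. Both criteria were met by 937 of 11540 protein-coding genes (8.12%) and by 16.2% of all genes tested.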

How the data were processed

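Total RNA-seq was deposited for 3 libraries of 1 group. Per the deposited README, gene tables come from reads aligned to mm10 (annotation M21) and a second transcript table comes from reads without that alignment. Aligner, quantifier and strand: not given in the sources used here. Per the file headers, deposited expected counts are estimates in which shared reads are split. The deposited TPM and FPKM values are normalised by the authors for effective length and library total, per the file headers, which also give lengths.

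All 55536 gene rows matched M21. Rows that name no gene (0.418, 0.248 and 0.165% of counts) were left out. Rounded expected counts were TMM-scaled (edgeR 4.0.16, R 4.3.3) or, as an alternative, DESeq2 1.42.0 size factors. The libraries were compared by chi-square tests over genes with a mean of 10 or more counts, adding 0.5 counts for ratios. On counts simulated at the mean levels of these genes with counting error alone, this recovered 100% of 4-fold and 3% of 1.5-fold changes. It called 1 of 13476 unchanged genes. The simulation held no other spread between libraries, so it says nothing of calls that come from such spread. Wilson intervals and limits from 3 counts cover counting error only. Copies were grouped with BLAST 2.17.0. Other tools were matplotlib 3.10.9, pandas 2.3.3, scipy 1.17.1 and numpy 2.4.6 in Python 3.11.15.

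The members, lists and rules were chosen with earlier results of these data known. Genes are named per class by the 8 highest mean counts and the 5 highest TPM, with the 6 highest and 6 lowest ratios of replicate 3, the 3 genes on each side of the threshold, Rnu genes, hosts, and genes of the lists. Flanking genomic windows were not analysed here, so lincRNA transcript ends served for the motifs.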

Additional observations from a re-analysis of the deposited data

How the results depend on the processing

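The number of members was 55 and 41 at thresholds of 5 and 20 mean expected counts, 29 at 50, 64 with read-derived counts, and 38 to 52 with 1 library left out. Their mean share of expected counts was 0.0108 to 0.0245% with 1 library left out, and lowest without replicate 3. Their share of TPM was 0.648%, 2.09% relative to protein-coding genes, 0.0679% in the read-derived table and 0.32 to 0.872% with 1 library left out. The log2 ratio of U1 to Gm22009 was 2.50 in TPM, 0.27 in read-derived TPM, -0.93 per kb of annotated length and 2.21 to 2.88 with 1 library left out. For the 2 read-derived values of TPM the cause was not tested, while the ratio per annotated kb differs by construction, since effective length is not used.

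The count of members differing between libraries was 48 under DESeq2 size factors and under protein-coding totals (16.2 and 16.9% of all genes tested), 41 of 41 at a mean of 20 counts (12%), 58 of 103 with no filter (18%), 38 at a ratio of 4 (8.98%) and 41 of 43 with read-derived counts, where the share of all genes rose from 16.2 to 32.5%, with every differing member highest in replicate 3 in each of these. It was 12 to 42 with 1 library left out, 12 of 38 without replicate 3 (4.81% of all genes). After seeing the data, copies were summed into families, which gave 19 of 19 differing and 19 highest in replicate 3 (fewer units by construction, and 6 of the 19 entered only through replicate 3), and the threshold was applied to replicates 1 and 2, which gave 38 of 38. The median log2 ratio of replicate 3 to the others ranged from 1.53 without replicate 2 to 2.38 without replicate 1. No paired analysis was possible because there is 1 group. A count of 0 allows up to 0.104 CPM in replicate 1. Why short genes held few expected counts was not tested.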
